A study of Mus musculus with 6 samples.

Results

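The Notch genes examined were 10 of the 54752 genes listed for each library: the receptors Notch1, Notch2, Notch3 and Notch4, the ligands Jag1, Jag2 and Dll1, and the target genes Hes1, Hey1 and Heyl. They were picked by symbol, through the gene identifiers of GENCODE release M21 on GRCm38, and all 10 were found. RNA was sequenced from 3T3-L1, a fibroblast line from mouse embryos whose cells convert to fat cells under hormonal induction, as 3 adipocyte and 3 preadipocyte libraries numbered 1 to 3. The labels give the strain as C57BL/6J, the tissue as embryo and the treatment as none for all 6 libraries. The description of the medium is also shared by both states. It names BCS, FBS and the abbreviation DMI without saying which state received what, and the day of harvest is not given in the sources used here. The source name reads Adipocyte for every library, so titles and cell type labels define the states. Nothing in the labels says that the libraries came from separate cultures, so the p-values speak for the spread among these 6 libraries, which may be technical.

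Notch signalling passes between touching cells. A ligand of the Jagged or Delta-like families on one cell binds a Notch receptor on its neighbour, the receptor is cut by the protease ADAM10 and then by the gamma-secretase complex, and the freed intracellular domain enters the nucleus. There it joins the DNA-binding protein RBPJ and a Mastermind coactivator to switch on genes of the Hes and Hey families, which encode basic helix-loop-helix repressors. In fat biology the pathway is best known through Dlk1, also called Pref-1, a Delta-like protein that marks preadipocytes and holds back their conversion.

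Total expected counts per library ran from 22496486 to 26314076. All 7 adipocyte markers examined were higher and all 7 preadipocyte and fibroblast markers lower in the libraries labelled adipocyte. Of the 14726 genes with enough counts to be tested, 73.5% differed between the states at an adjusted p under 0.05 (edgeR's quasi-likelihood test, Benjamini-Hochberg), with 35.7% higher and 37.9% lower in adipocytes. Higher genes were 48.5% of calls with TMM scaling, 28.2% in limma's test of log2(TPM + 1) and 34.3% without TMM factors. Relative to TMM, leaving out the factors moved the log2 fold change of the median gene by -0.33, and limma on log2(TPM + 1) moved it by -0.48. Levels are given as CPM, counts scaled to library size by TMM, where 1 gene is compared between states, and as TPM, the transcript share that allows for gene length, where genes are compared with each other.

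The receptor genes Notch2 and Notch3 and the ligand gene Jag1 fell in adipocytes, while the target gene Hes1 and the receptor gene Notch4 rose. Thus 5 of the 7 tested members passed, 2 higher and 3 lower, against 73.5% of all tested genes. The CPM of the states did not overlap for the same 5, again 2 higher and 3 lower, against 76.5% of all tested genes, 36.8% higher and 39.7% lower. Notch4 alone passed with at least a 2-fold difference, which 19.3% of tested genes reached upward and 21.8% downward. Its counts were few, 75 in adipocytes and 35 in preadipocytes, and its difference did not pass in TPM. The median absolute log2 fold change was 0.80 over the 7 tested members and 0.78 over all tested genes. Notch1 and Jag2 did not pass, and Dll1, Hey1 and Heyl had too few counts to be tested. In bulk RNA, fewer cells carrying a transcript and less of it per cell cannot be told apart.

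**Figure D1:**
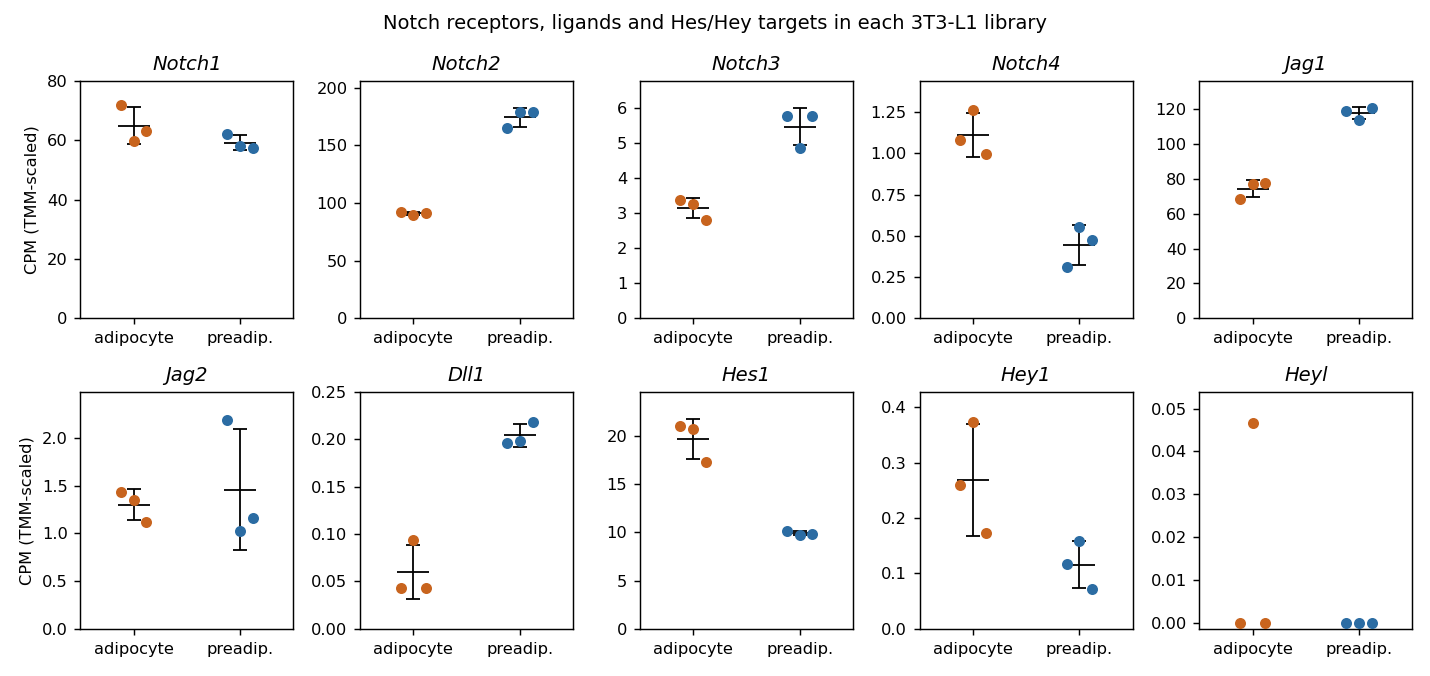
TMM-scaled CPM of the 10 Notch genes, with adipocyte libraries left of preadipocyte libraries in each panel. Points are libraries 1 to 3 from left to right within a state, and horizontal lines with bars are the mean and SD (n = 3, left out for Heyl). The vertical axes differ between panels and start at 0, except for Heyl, where a margin below 0 was added. The 3 adipocyte libraries lie below all preadipocyte libraries for Notch2, Notch3, Jag1 and Dll1, and above them for Notch4, Hes1 and Hey1.

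The order of the levels differed between the states. In adipocytes Hes1, at 21.5 ± 2.44 TPM, and Jag1, at 19.8 ± 1.52 TPM, stood highest (SD, n = 3). Their ranges over libraries overlapped, from 19.3 to 24.1 TPM for Hes1 and from 18.4 to 21.4 TPM for Jag1. Notch2 followed with 11.3 ± 0.202 TPM and Notch1 with 8.96 ± 0.699 TPM (SD, n = 3). In preadipocytes Jag1 led with 49 ± 0.787 TPM, ahead of Notch2 with 31 ± 2.66 TPM, Hes1 with 14.2 ± 0.393 TPM and Notch1 with 12 ± 0.659 TPM (SD, n = 3). None of these 4 overlapped its neighbour in preadipocytes. The other 6 members averaged 0.95 TPM or less in adipocytes and 1.27 TPM or less in preadipocytes. Against the tested genes, Hes1 stood at percentile 65.2 of mean TPM in adipocytes and 47.7 in preadipocytes, Jag1 at 63.4 and 78.5, and Notch2 at 51 and 67.7.

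Notch2 (ENSMUSG00000027878.11, chromosome 3, 98013527 to 98150361, plus strand, GRCm38) encodes the receptor with the highest transcript level in both states. It measured 92.4, 89.8 and 90.9 CPM in adipocyte libraries 1 to 3, against 165, 179 and 179 CPM in preadipocyte libraries 1 to 3. Every adipocyte library was below every preadipocyte library. Notch2 fell to 0.522 of the preadipocyte level in adipocytes, a log2 fold change of -0.94 (SE 0.0702, adjusted p = 2.82e-06 by edgeR). Its annotated exons share 541 bases with Gm42820 on the same strand, a gene with 15 counts in adipocytes and 17 in preadipocytes.

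Notch1 (ENSMUSG00000026923.15, chromosome 2, 26457903 to 26516663, minus strand) encodes the other receptor with a sizeable transcript level. It measured 72, 59.9 and 63.1 CPM in adipocytes and 62.3, 58 and 57.5 CPM in preadipocytes. The libraries of the states overlapped. The log2 fold change was 0.13 (SE 0.0891, 95% interval -0.04 to 0.31) and did not pass (edgeR adjusted p = 0.20). With the replicate number as a block the same difference of 0.13 passed (adjusted p = 0.039), and with limma on log2(TPM + 1) Notch1 was lower, at -0.39 (adjusted p = 0.0042). Adjusted p over its 16 alternatives ran from 0.0042 to 1, and total counts gave -0.19, so no direction is stated for Notch1. On the opposite strand, 0610009E02Rik shares 7.5% of the exon bases of Notch1 and had 63 counts in adipocytes and 48 in preadipocytes.

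Within libraries, where no scaling between libraries enters, the TPM of Notch2 was 1.16, 1.36 and 1.27 times that of Notch1 in adipocytes and 2.39, 2.53 and 2.83 times in preadipocytes. The ratio was lower in each adipocyte library than in any preadipocyte library. Notch1 made up 41.3% ± 1.96 of summed receptor TPM in adipocytes and 26.8% ± 1.83 in preadipocytes, and Notch2 made up 52% ± 1.94 and 68.8% ± 1.38 (SD, n = 3). Together the 4 receptor genes summed to 21.7 ± 0.671 TPM in adipocytes and 45.1 ± 3 TPM in preadipocytes (SD, n = 3). In CPM, the scale used here between states, they summed to 154 to 169 in adipocyte and 233 to 243 in preadipocyte libraries. The difference was larger in TPM, where the median gene also lies lower in adipocytes.

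**Figure D2:**
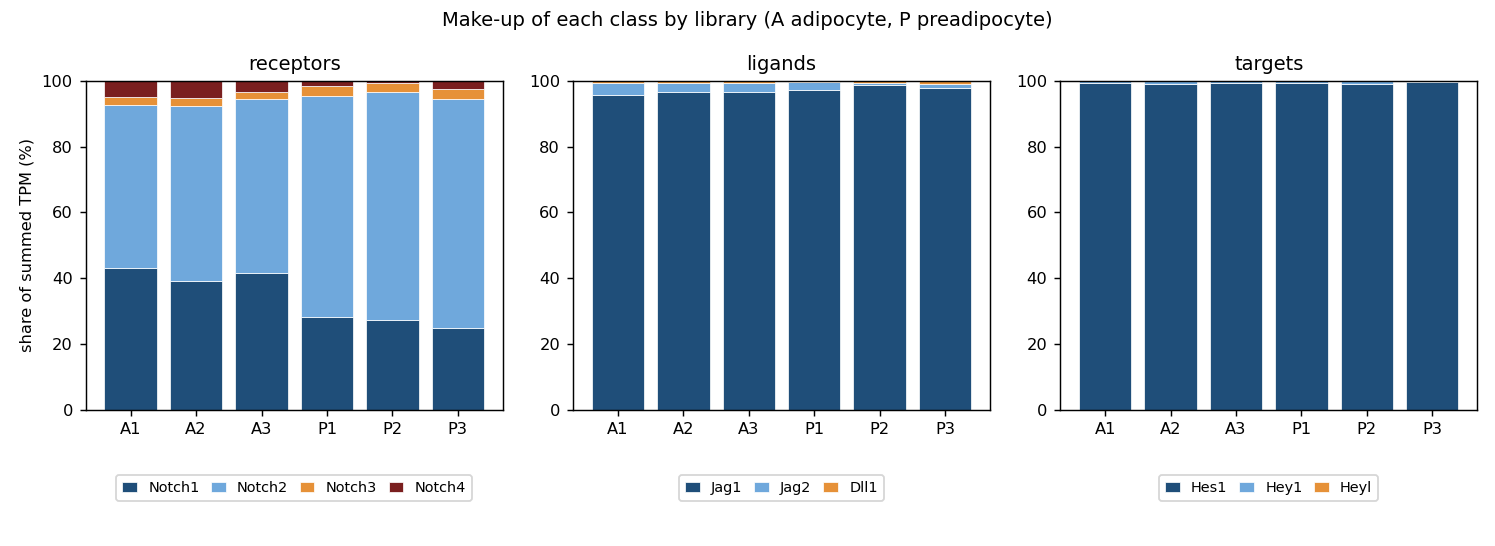
Share of summed TPM (%) taken by each member within the receptors, the ligands and the targets, with adipocyte libraries A1 to A3 left of preadipocyte libraries P1 to P3. The Notch1 share is 39.1% to 43% in adipocyte and 24.7% to 28.2% in preadipocyte libraries, whereas Jag1 and Hes1 take at least 95.7% of their classes in every library.

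Notch3 (ENSMUSG00000038146.7, chromosome 17, 32120820 to 32166852, minus strand), a receptor best known from vascular smooth muscle and pericytes, was far scarcer. It had 3.37, 3.27 and 2.81 CPM in adipocytes, against 5.79, 4.86 and 5.77 CPM in preadipocytes. The states did not overlap, and Notch3 fell, with a log2 fold change of -0.80 (SE 0.147, adjusted p = 0.001 by edgeR). Of the smooth muscle and pericyte markers, Rgs5 had 0 counts in adipocytes and 4 in preadipocytes, and Cnn1 had 9 in each. Among the others, Acta2 and Tagln were lower in adipocytes (log2 fold change -5.08 and -2.55), as Notch3 was, whereas Myh11 and Des were higher (6.02 and 5.45). The summed level of these 7 markers was 95.5 to 116 CPM in adipocyte and 168 to 215 CPM in preadipocyte libraries, and their part in the Notch3 difference was not tested.

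Notch4 (ENSMUSG00000015468.14, chromosome 17, 34564268 to 34588503, plus strand), a receptor mainly described in endothelium, had 25, 27 and 23 counts in the adipocyte libraries and 8, 14 and 13 counts in the preadipocyte libraries. Scaled, these were 1.08, 1.26 and 0.995 CPM in adipocytes and 0.313, 0.553 and 0.472 CPM in preadipocytes, without overlap. Notch4 rose in adipocytes, with a log2 fold change of 1.31 (SE 0.28, adjusted p = 0.0025 by edgeR), the largest absolute fold change of the 7 tested members. On 75 counts in adipocytes and 35 in preadipocytes, the ratio of summed levels was 2.48 with an exact 95% interval of 1.64 to 3.82, which covers counting error only. The difference did not pass in TPM: the log2 fold change was 0.22 with limma on log2(TPM + 1) (adjusted p = 0.30, range over its 16 alternatives 0.0017 to 0.30). The states overlapped in that unit, with 1.08, 1.06 and 0.71 TPM in adipocytes and 0.61, 0.32 and 1.19 TPM in preadipocytes. The effective length that enters TPM was 1244, 1517 and 1823 bases for Notch4 in adipocytes and 907, 3189 and 743 bases in preadipocytes, and preadipocyte library 3, with 13 counts and the shortest effective length, had the highest TPM. With effective length as an offset in the count test, the log2 fold change of Notch4 was 1.17 and passed (SE 0.465, adjusted p = 0.047 by edgeR). For comparison, the effective length of Notch3 was 7869 to 7878 bases in all 6 libraries. Counts per gene do not separate the transcript forms of Notch4. Of the 8 endothelial markers, Tie1 had 0 counts in all libraries, Cdh5 and Emcn 1 count each in adipocytes and 0 in preadipocytes, and Kdr 0 in adipocytes and 7 in preadipocytes. Tek had 2 counts in adipocytes and 11 in preadipocytes, and Esam had 4 and 6 in the same order. Pecam1, with 26 and 40 counts, did not pass (log2 fold change -0.41), while Egfl7 was higher (1.19). The summed level of the 8 markers was 4.34 to 4.97 CPM in adipocyte and 2.14 to 3.56 CPM in preadipocyte libraries, most of it from Egfl7. Their part in the Notch4 difference was not tested. Over 8989 tested genes with a mean of at least 10 CPM, the profiles most like Notch4 were Wdr12, Grb2 and Ywhae (Pearson correlation of log2(CPM + 1) 0.998, 0.997 and 0.995 over 6 libraries). Such a likeness follows the contrast of the 2 states, and the log2 fold change was 0.44 for Wdr12, 0.28 for Grb2 and 0.15 for Ywhae.

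Among the ligands, Jag1 (ENSMUSG00000027276.7, chromosome 2, 137081456 to 137116644, minus strand) took 96.3% ± 0.556 of the summed TPM of Jag1, Jag2 and Dll1 in adipocytes and 98% ± 0.66 in preadipocytes (SD, n = 3). Jag1 measured 68.7, 77.1 and 77.4 CPM in adipocytes, against 119, 114 and 120.4 CPM in preadipocytes. The states were well apart, and Jag1 fell, with a log2 fold change of -0.66 (SE 0.076, adjusted p = 4.83e-05 by edgeR). The fall was larger in TPM, at -1.27 with limma on log2(TPM + 1), where the median gene also lies lower. The effective length of Jag1 was 4648 to 4998 bases in adipocyte and 4323 to 4528 bases in preadipocyte libraries.

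Jag2 (ENSMUSG00000002799.6, chromosome 12, 112907819 to 112929776, minus strand), the other Jagged ligand, had 33, 29 and 26 counts in adipocytes and 56, 26 and 32 counts in preadipocytes. Preadipocyte library 1 was the high one, at 2.19 CPM against 1.03 and 1.16 CPM in preadipocyte libraries 2 and 3. The log2 fold change was -0.16 (SE 0.313, 95% interval -0.78 to 0.45, edgeR adjusted p = 0.66), and it changed sign without preadipocyte library 1, at 0.25. Dll1 (ENSMUSG00000014773.13, chromosome 17, 15367354 to 15376872, minus strand), a Delta-like ligand, had 1, 2 and 1 counts in adipocytes and 5, 5 and 6 counts in preadipocytes. These counts did not overlap, but they were below the limit for testing. The ratio of the summed levels was 0.29 (exact 95% interval 0.0705 to 0.898), and without the low-count filter Dll1 did not pass (log2 fold change -1.64, edgeR adjusted p = 0.092). A further gene, A930024N18Rik on the opposite strand, shares 867 of 4219 exon bases with Dll1 and had 1 count in each state. The ligand genes Dll3 and Dll4 were nearly silent, with 4 counts for Dll3 and 13 for Dll4 in adipocytes and 0 for Dll3 and 18 for Dll4 in preadipocytes.

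Hes1 (ENSMUSG00000022528.8, chromosome 16, 30064384 to 30067796, plus strand), the repressor gene most widely used as a readout of Notch signalling, measured 21, 20.7 and 17.3 CPM in adipocytes and 10.1, 9.72 and 9.87 CPM in preadipocytes. All adipocyte libraries were above all preadipocyte libraries, and the preadipocyte libraries were close together. Hes1 rose to 1.99 times the preadipocyte level, a log2 fold change of 0.99 (SE 0.106, adjusted p = 3.09e-05 by edgeR). It was higher in TPM too, where the log2 fold change was 0.56 with limma on log2(TPM + 1) against a median gene at -0.48 relative to TMM. Set against Notch2 within each library, the TPM of Hes1 was 2.17, 1.88 and 1.68 times that of Notch2 in adipocytes and 0.497, 0.434 and 0.447 times in preadipocytes. Relative to Jag1 it was 1.31, 1.07 and 0.901 times in adipocytes and 0.287, 0.289 and 0.293 times in preadipocytes. Hes1 thus stood above Notch2 in every adipocyte library and above Jag1 in adipocyte libraries 1 and 2, and below both in every preadipocyte library. It stood above Notch1 in all 6 libraries, at 2.51, 2.56 and 2.13 times in adipocytes and 1.19, 1.1 and 1.26 times in preadipocytes.

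The Hey genes were scarce in both states. Hey1 (ENSMUSG00000040289.8, chromosome 3, 8663359 to 8667256, minus strand) had 6, 8 and 4 counts in adipocytes and 3, 4 and 2 counts in preadipocytes. Its CPM values did not overlap, at 0.173 to 0.374 CPM in adipocytes and 0.0726 to 0.158 CPM in preadipocytes, while its counts met at 4. The ratio of the summed levels was 2.32 (exact 95% interval 0.989 to 5.86), and without the low-count filter Hey1 did not pass (log2 fold change 1.25, edgeR adjusted p = 0.13). Heyl (ENSMUSG00000032744.4, chromosome 4, 123233556 to 123249875, plus strand) had 1 count in adipocyte library 2 and 0 in the other 5 libraries. Both states were under the limit that a count of 0 allows, 3 counts over the libraries of a state, or 0.0443 CPM in adipocytes and 0.0383 CPM in preadipocytes. Hes1 therefore made up 99.3% ± 0.282 of the summed TPM of the 3 target genes in adipocytes and 99.3% ± 0.255 in preadipocytes (SD, n = 3).

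**Figure D3:**
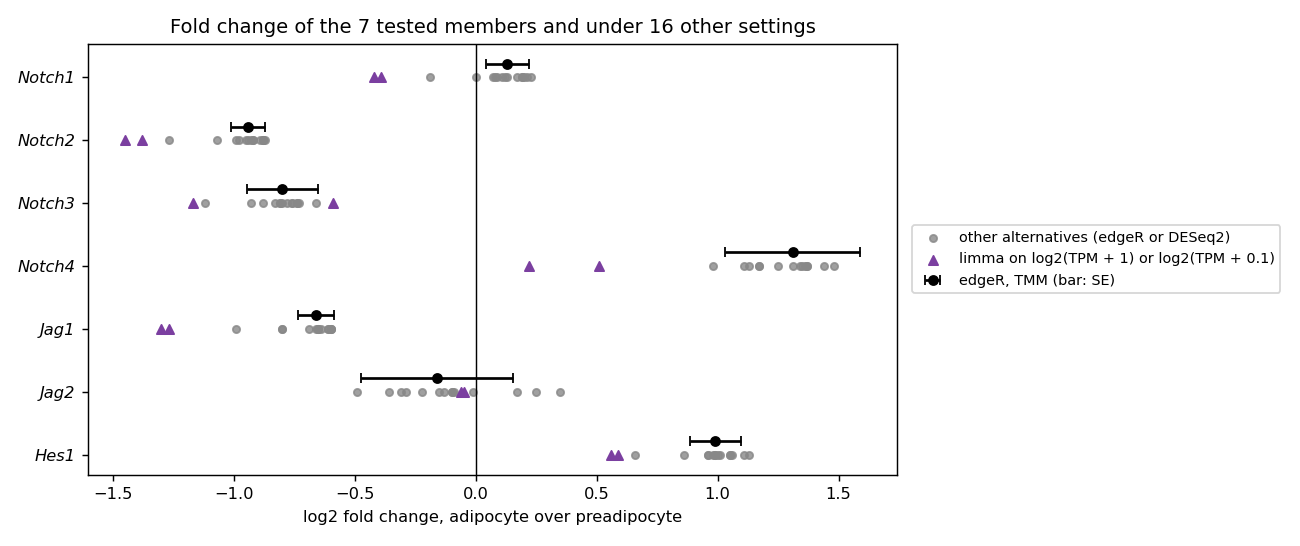
Log2 fold change (adipocyte over preadipocyte) of the 7 tested Notch genes. Black points with bars are the edgeR value with TMM scaling and its SE, grey points are the edgeR and DESeq2 alternatives and purple triangles are limma on log2(TPM + 1) or log2(TPM + 0.1). Notch2, Notch3 and Jag1 lie below 0 and Hes1 and Notch4 above 0 at every setting, whereas Notch1 and Jag2 lie on both sides.

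Promoter windows of the members were also examined. The RefSeq promoter table, on build GRCm38.p6, held 8 windows for 7 of the 10 members, each from 250 bases before to 50 bases after a transcription start. Hes1, Hey1 and Heyl had no entry, so of the members that rose, Notch4 alone had a window. The windows were searched on both strands for the RBPJ sites TTCCCAC and TTCTCAC, the E-box CACGTG and the N-box CACNAG, to which Hes proteins bind. Matches of CACNAG can overlap those of the RBPJ sites or each other. None of the 8 windows held either RBPJ site or the E-box, which were found in 6.38%, 4.59% and 7.15% of all 32851 windows in the table, in this order. The N-box was in 4 of the 8 windows, those of Notch1, Notch2 and Notch3 and the second of Dll1, and in 42.5% of all windows. The windows of the members that fell, and of Notch4, follow with N-box letters in capitals. They lie at chr3:98013288-98013587 on the plus strand for Notch2, chr17:32166841-32167140 on the minus strand for Notch3, chr2:137116471-137116770 on the minus strand for Jag1 and chr17:34564045-34564344 on the plus strand for Notch4, and are written 5′ to 3′ on the gene's strand.
Notch2: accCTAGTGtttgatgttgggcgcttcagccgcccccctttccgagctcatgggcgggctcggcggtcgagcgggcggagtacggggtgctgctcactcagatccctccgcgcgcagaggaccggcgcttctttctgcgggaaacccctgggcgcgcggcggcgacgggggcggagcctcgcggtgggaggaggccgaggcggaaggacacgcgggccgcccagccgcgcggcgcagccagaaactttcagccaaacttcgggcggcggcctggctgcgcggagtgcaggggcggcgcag
Notch3: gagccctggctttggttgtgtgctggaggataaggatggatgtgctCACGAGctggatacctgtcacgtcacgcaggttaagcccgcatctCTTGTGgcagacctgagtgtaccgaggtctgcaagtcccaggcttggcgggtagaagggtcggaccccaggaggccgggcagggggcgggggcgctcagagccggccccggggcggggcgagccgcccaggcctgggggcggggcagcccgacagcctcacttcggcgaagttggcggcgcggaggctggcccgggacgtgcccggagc
Jag1: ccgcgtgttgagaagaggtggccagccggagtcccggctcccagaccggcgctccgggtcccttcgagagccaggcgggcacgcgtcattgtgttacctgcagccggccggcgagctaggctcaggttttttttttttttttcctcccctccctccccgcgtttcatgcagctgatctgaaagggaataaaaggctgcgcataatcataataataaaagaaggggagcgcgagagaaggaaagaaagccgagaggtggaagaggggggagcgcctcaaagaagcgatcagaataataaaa
Notch4: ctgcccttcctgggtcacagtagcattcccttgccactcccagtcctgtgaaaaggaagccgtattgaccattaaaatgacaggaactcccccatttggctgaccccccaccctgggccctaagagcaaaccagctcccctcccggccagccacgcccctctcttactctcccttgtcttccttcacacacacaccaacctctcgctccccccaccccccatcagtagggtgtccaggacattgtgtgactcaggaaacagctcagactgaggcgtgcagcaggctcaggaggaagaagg

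The windows of Notch2 and Notch3 were 73% and 70% G or C, that of Jag1 55.7% and that of Notch4 58.3%. A match, or none, describes these letters only.

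The other genes of the pathway were read from 8 lists. Of their 95 genes, 78 were tested, and 21 of these were higher and 41 lower in adipocytes, 26.9% and 52.6% of those tested, against 35.7% and 37.9% of all tested genes. The median log2 fold change was -0.24 over the 78 genes and -0.06 over all tested genes. Total counts gave 17 higher and 52 lower, the replicate block gave 23 higher and 46 lower, and DESeq2 gave 21 higher and 35 lower. Calls over all 14726 tested genes moved as well. They were 3914 higher and 7481 lower with total counts, and 5411 higher and 5163 lower with DESeq2.

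**Figure D4:**
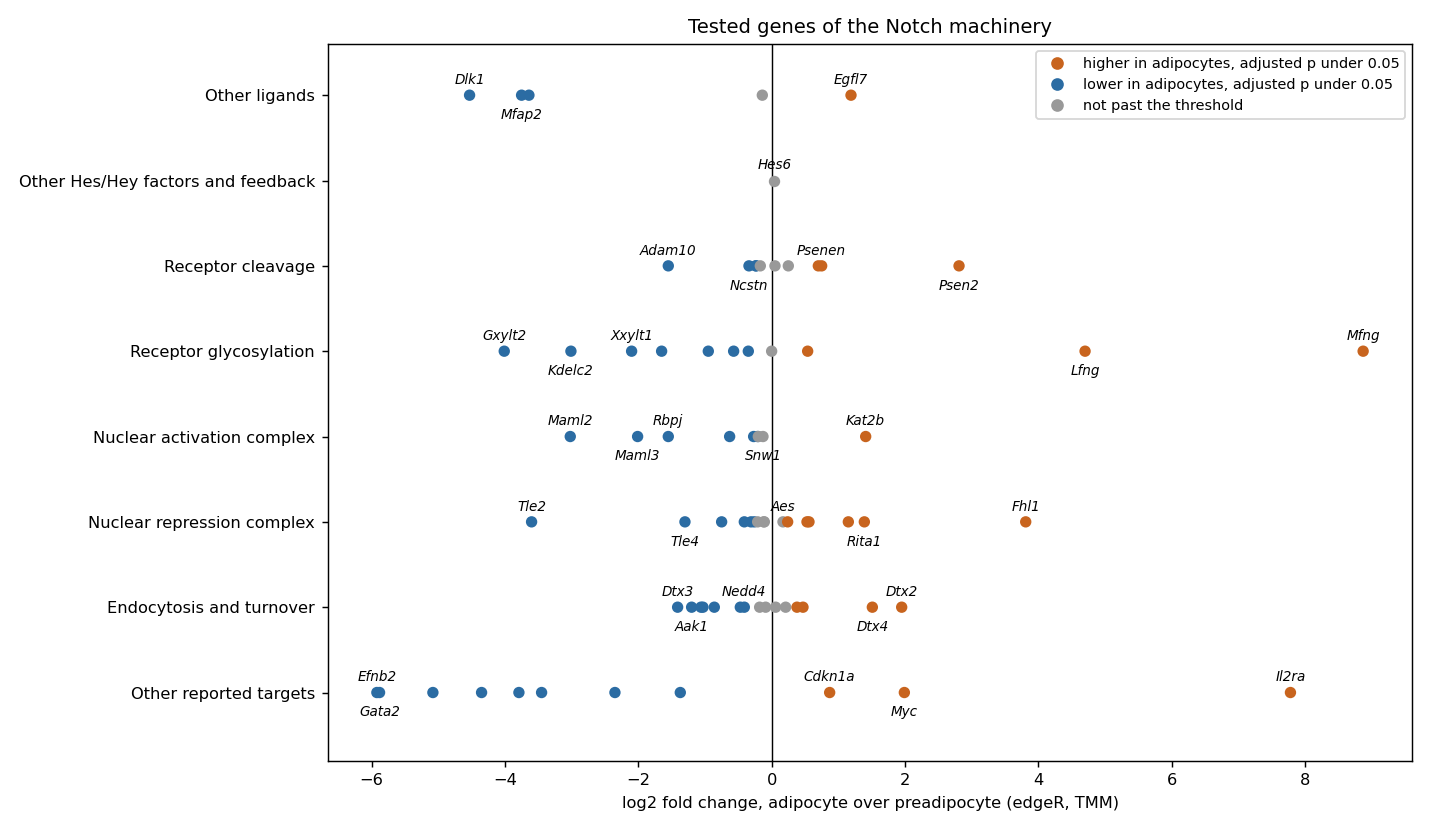
Log2 fold change (adipocyte over preadipocyte, edgeR with TMM scaling) of the 78 tested genes of the Notch machinery in 8 lists. Each point is 1 gene, coloured by its call, and the genes named by rule are labelled. Mfng and Il2ra had 0 and 1 counts in preadipocytes, so what is plotted for them rests on edgeR's prior count.

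Of 9 tested genes of the nuclear partners of the freed receptor, 6 were lower, 1 higher and 2 not past the threshold (median log2 fold change -0.27). Of all tested genes, 37.9% were lower and 35.7% higher. Rbpj, the DNA-binding core of the complex, measured 31.5, 34.8 and 36.4 CPM in adipocytes and 92.4, 108 and 100.4 CPM in preadipocytes. It fell without overlap, at a log2 fold change of -1.55 (SE 0.0921, adjusted p = 6.00e-07 by edgeR). The Mastermind coactivator genes Maml2 and Maml3 fell, with log2 fold changes of -3.02 and -2.01, and Maml2 averaged 7.3 ± 0.0725 CPM in adipocytes and 59.1 ± 3.41 CPM in preadipocytes (SD, n = 3). Maml1, also a Mastermind gene, differed far less, at -0.27. In adipocytes Maml1 averaged 12.4 TPM, above Maml2 at 1.68 TPM and Maml3 at 0.41 TPM. The acetyltransferase gene Kat2b was the gene that rose, by 1.41 (SE 0.119). Snw1, the most abundant by TPM, was at -0.13 and did not pass (adjusted p = 0.10), but passed as lower with the replicate block (adjusted p = 0.026, range over its alternatives 0.00013 to 0.6). The lower count was 8 of 9 with the block and 4 of 9 without the low-count filter, with DESeq2 or without adipocyte library 2 or 3. Of all 14726 tested genes, 6212 were lower with the block and 5163 with DESeq2.

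Corepressors that hold Notch targets off without signalling, or act with Hes proteins, went both ways, with 6 of 16 higher and 6 lower (median -0.12). The shares over all tested genes were 35.7% higher and 37.9% lower. Fhl1, a LIM-domain gene with a protein form that binds RBPJ, averaged 10.6 ± 0.728 CPM in adipocytes and 0.754 ± 0.127 CPM in preadipocytes (SD, n = 3). Its log2 fold change was 3.81, from counts per gene that do not separate its forms. Rita1, whose product moves RBPJ out of the nucleus, rose by 1.39. The Groucho-family genes, whose products partner Hes repressors, split: Tle2 fell by 3.60 and Tle4 fell by 1.30 on the log2 scale, while Tle1 rose by 1.15. Tle3 was higher by 0.53, a call that ended with limma on log2(TPM + 1) (0.04). Aes, a short Groucho-related gene and the most abundant of this list, was at 0.17 and did not pass, but passed as higher with the replicate block (0.16). With total counts 5 were higher and 9 lower, and with limma on log2(TPM + 1) 3 were higher and 9 lower. Those settings called 7481 and 8279 of all 14726 tested genes lower, in this order. With DESeq2 or without the low-count filter, 6 of the list were higher and 4 lower.

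Sugars added to the receptor on its way to the surface tune its response to ligands. Of 11 genes of receptor glycosylation, 3 were higher and 7 lower (median -0.57). Over all tested genes, 35.7% were higher and 37.9% lower (median -0.06). The higher genes were the 3 Fringe enzymes, which lengthen O-fucose sugars and in mammals alter how receptors respond to Jagged against Delta-like ligands. Lfng measured 86.5, 76.2 and 69.4 CPM in adipocytes and 3.52, 2.45 and 2.94 CPM in preadipocytes, a log2 fold change of 4.70 (SE 0.148, adjusted p = 1.33e-08 by edgeR). Mfng had 69, 43 and 51 counts in adipocytes and none in preadipocytes, which makes it at least 63-fold higher against a floor of 3 counts over the preadipocyte libraries. Rfng was higher by 0.54, a call that ended in limma's test of log2(TPM + 1) (0.03) and without TMM factors (0.21). The lower genes included those of the xylose branch and of O-glucosylation: Gxylt2 averaged 18.2 ± 3.2 CPM in adipocytes and 293 ± 24.7 CPM in preadipocytes, and Xxylt1 averaged 35.4 ± 1.21 CPM and 152 ± 1.23 CPM in the same order (SD, n = 3). Kdelc2, now named Poglut3, fell by 3.01, and the O-fucosyltransferase gene Pofut1 fell by 0.57 on the log2 scale.

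Of 10 genes of receptor cleavage, 3 were higher and 4 lower (median -0.06), against 35.7% and 37.9% of all tested genes. Adam10, the protease of the first ligand-driven cut, measured 56.6, 69.8 and 75.8 CPM in adipocytes and 175, 213 and 204 CPM in preadipocytes, and fell, with a log2 fold change of -1.55 (SE 0.124, adjusted p = 4.36e-06 by edgeR). Its relative Adam17 was at -0.23 (adjusted p = 0.012), a call that ended under 7 of 16 alternatives, where adjusted p ran up to 0.18. Within gamma-secretase, Psen2, the gene of a catalytic subunit, rose by 2.81 (SE 0.154), with 93.3 ± 13.6 CPM in adipocytes and 13.3 ± 2.38 CPM in preadipocytes (SD, n = 3). The subunit genes Psenen and Aph1b were higher by 0.75 and 0.70, and neither passed with limma on log2(TPM + 1) (0.19 and 0.20). Aph1b has a near-identical mouse copy, Aph1c, so the share of reads between them is uncertain. Ncstn, the gene of nicastrin, fell by 0.34, a call that ended without adipocyte library 2 (-0.28) or 3 (-0.25). The lower count ran from 1 without adipocyte library 2 or 3 to 6 with total counts.

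Of 15 tested genes of endocytosis and turnover, 4 were higher and 7 lower (median -0.18), against 35.7% and 37.9% of all tested genes. Deltex genes, which encode ubiquitin ligases that act on Notch, went both ways: Dtx2 and Dtx4 rose by 1.95 and 1.51, and Dtx3 fell by 1.41 on the log2 scale. Aak1, a kinase of clathrin-mediated uptake, fell by 1.20, and Numbl, a relative of the Notch inhibitor Numb, fell by 1.06. Nedd4, a ubiquitin ligase gene and the most abundant of the list, averaged 1453 ± 79.7 CPM in adipocytes and 1926 ± 54.1 CPM in preadipocytes (SD, n = 3). With limma on log2(TPM + 1), 2 were higher and 11 lower, against 3254 higher and 8279 lower of all 14726 tested genes.

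Of 10 other ligands and secreted modulators, 5 were tested, with 1 higher and 3 lower, against 35.7% and 37.9% of all tested genes. Dlk1, a Delta-like protein without the usual receptor-binding domain, averaged 129 TPM in adipocytes and 4256 TPM in preadipocytes, above Jag1 in both states. Dlk1 is also one of the preadipocyte markers. The microfibril genes Mfap2 and Mfap5, whose products can bind Jagged and Notch proteins, fell, with log2 fold changes of -3.75 and -3.64. Egfl7, a secreted protein first described in endothelium that can bind Notch, was higher, at 4.18 ± 0.314 CPM in adipocytes and 1.83 ± 0.736 CPM in preadipocytes (SD, n = 3). Egfl7 also belongs to the endothelial markers.

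Of 8 further Hes and Hey factors and feedback genes, only Hes6 had enough counts to be tested. Hes6, a family member described as an inhibitor of Hes1, averaged 18.8 ± 2.11 CPM in adipocytes and 18.3 ± 2.18 CPM in preadipocytes (SD, n = 3). Its log2 fold change was 0.04 (SE 0.122, edgeR adjusted p = 0.80), but total counts put it lower (-0.29), as did limma on log2(TPM + 1) (-0.45). Nrarp, a feedback inhibitor that is a common Notch target, had 0 counts in all 6 libraries. Hes5 had 1 count in each state and Hey2 had 1 in adipocytes and 0 in preadipocytes.

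Of 11 tested genes reported as Notch targets in other cell types, 3 were higher and 8 lower (median -3.45). Of all tested genes, 35.7% were higher and 37.9% lower. Myc measured 34.9, 31.9 and 31.3 CPM in adipocytes and 9.79, 6.83 and 8.02 CPM in preadipocytes, and rose, with a log2 fold change of 1.99 (SE 0.133, adjusted p = 1.31e-06 by edgeR). Cdkn1a, a cell cycle inhibitor and the most abundant of the list, rose by 0.87, a call that ended with limma on log2(TPM + 0.1) (0.28). Il2ra, a T cell target, had 265 counts in adipocytes and 1 in preadipocytes, a ratio of 307 (exact 95% interval 54.7 to 12177). Of the immune markers, Adgre1 and Cd3e had 0 counts in all libraries, and Ptprc had 0 in adipocytes and 1 in preadipocytes. Cd68 had 49 counts in adipocytes and 40 in preadipocytes and did not pass, Lyz2 had 27 and 16 in the same order and was not tested, and Csf1r, with 10 in adipocytes and 117 in preadipocytes, was lower. The summed level of the immune markers was 0.952 to 1.68 CPM in adipocyte and 1.86 to 2.4 CPM in preadipocyte libraries, and their part in the Il2ra difference was not tested. Efnb2, an arterial ephrin, measured 1.51, 1.45 and 1.64 CPM in adipocytes and 85.3, 94.2 and 99.6 CPM in preadipocytes, and fell by 5.92 on the log2 scale. Gata2 fell by 5.88, and Ccnd1, the gene of cyclin D1, fell by 4.35.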

How the data were processed

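The authors deposited 1 gene table per library, in the layout of RSEM per the file headers. The tools that the submitters' processing notes name are Bowtie, Bowtie2, DESeq2 and RSEM, without versions or roles, and the builds named are mm10 and GRCm38. The deposited expected counts share out reads that match several genes by a model, with no scaling across libraries. TPM, as the authors deposited it, is relative to the other genes of the same library. The deposited effective lengths were used as an offset in an alternative and are given beside some TPM values. Whether counting used strand is not given in the sources used here, so reads of a gene and its antisense partner cannot be told apart.

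Of 54752 identifiers, 54723 matched GENCODE M21. Expected counts were rounded, genes passing filterByExpr were fitted over all 6 libraries with edgeR 4.0.16 (R 4.3.3), TMM and the group as the only term, and p-values were adjusted over all 14726 tested genes. SDs are over 3 libraries. The SE given with edgeR values is the absolute log2 fold change divided by the square root of the test's F statistic. The 95% intervals of log2 fold changes apply a normal quantile to this SE, so they are narrower than the test implies. Ratios of sparse counts carry exact Clopper-Pearson 95% intervals, which cover counting error only. Alternatives used limma 3.58.1, DESeq2 1.42.0, other scalings and filters, and fewer libraries. The scripts were tested on simulated data. Adipocyte libraries had TMM factors of 0.88 to 0.902, and preadipocyte libraries 1.106 to 1.128.

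Library numbers were checked for pairing. Deviations from the group means of log2(CPM + 1) correlated at 0.659, 0.301 and 0.265 for the pairs numbered 1, 2 and 3, all above the limit of 0.1, so the replicate number was used as a block in an alternative. Differently numbered pairs ran from -0.567 to 0.446. Adipocyte library 3 correlated best with preadipocyte library 2 (0.446), so not every library went best with its own number. Pairs of libraries of 1 state differed by more than counting noise (chi-square per degree of freedom 2.851 to 36.235). The lowest value was that of preadipocyte libraries 2 and 3, and the next lowest was 14.208. Each library was kept as 1 replicate, although such a spread does not show that the cultures were separate.

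The members and lists were chosen with earlier results of these data known. Genes named were the 10 members, Rbpj and Dlk1, the 2 largest rises and falls past the threshold, the most abundant gene of each list, called genes with 0 counts in a state, and the 3 profiles most like the member with the largest fold change. Further genes, named to complete small counts and families, were picked with their values in view. Protein sequences were not used here.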

Additional observations from a re-analysis of the deposited data

How the results depend on the processing

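Under all 16 alternatives Notch2, Notch3 and Jag1 were lower and Hes1 higher past the threshold. Their log2 fold changes ran from -1.45 to -0.87 for Notch2, -1.17 to -0.59 for Notch3, -1.30 to -0.60 for Jag1 and 0.56 to 1.13 for Hes1. Notch4 was higher under 14 alternatives and did not pass with limma on log2(TPM + 1) (0.22) or log2(TPM + 0.1) (0.51). With effective length as an offset to the counts it was 1.17 and passed (adjusted p = 0.047 by edgeR). Jag2 passed under none.

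With limma on log2(TPM + 1) and log2(TPM + 0.1), 3254 and 3177 genes were higher, in place of 5252, with 1 higher Notch gene each in place of 2 and 13 and 12 higher genes of the pathway lists in place of 21. These settings also turned Notch1 (-0.39 and -0.42) and Hes6 (-0.45 and -0.47) to lower, and total counts turned Hes6 to lower (-0.29). The cause was not tested, and the median gene shifted by -0.48 and -0.51 in the limma fits.

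With the replicate block, 5763 genes were higher and 6212 lower, and Notch1 passed as higher, which makes 3 higher and 3 lower Notch genes. The block also brought Snw1 and Aes past the threshold and ended no call among the 10 members or the other named genes. Leaving out each library in turn kept 2 higher and 3 lower Notch genes, with 19 to 21 higher and 34 to 44 lower genes of the lists. Leaving out both libraries numbered 1, a setting chosen after seeing the data, gave 2 higher and 3 lower Notch genes, with 0.09 for Notch1 and 1.13 for Notch4. Counts in place of TPM gave Notch4 0.696% of receptor counts in adipocytes and 0.186% in preadipocytes, where TPM gave 4.38% and 1.56%. Depth limits Dll1, Hey1 and Heyl, each with 18 counts or fewer in either state.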
